A study of Mus musculus with 9 samples.

Results

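The genes described here encode the proteasome and its regulators. They were taken by name, as every mouse symbol from Psma to Psmg followed by a number, with a value of at least 10 in 3 or more of 9 brain RNA-seq libraries. Of the 21853 protein-coding genes in the files, 50 symbols matched and 49 passed. They comprise 14 genes of the constitutive core, 17 of the regulatory cap (9 of its base and 8 of its lid), 6 of the activators and the inhibitor, 7 of dedicated assembly factors and 3 of the immunoproteasome. The last 2 are Psma8, which encodes a core subunit known from testis, and Psmc3ip, whose product binds a base subunit and is known for its part in meiotic recombination, so it is counted by its symbol and is no proteasome subunit. Close to the threshold, Psma8 had 0, 0 and 0 in the HD-WNT5B libraries, 3.19, 5.16 and 15.4 in HD-Control and 18.3, 16.2 and 20.4 in WT-Control, and passed mainly through WT-Control. The symbol left outside was Psmb11, a core subunit known from the thymus, with 55.4, 0 and 0 in HD-WNT5B and at most 9.15 in any HD-Control or WT-Control library.

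The proteasome is the protease that degrades most ubiquitin-tagged proteins. Its barrel-shaped core is built from rings of alpha subunits around rings of beta subunits, and the beta subunits encoded by Psmb5, Psmb6 and Psmb7 carry the chymotrypsin-like, caspase-like and trypsin-like active sites. The cap binds ubiquitin chains, removes them and threads the protein into the core with a ring of ATPases. Interferon induces Psmb8, Psmb9 and Psmb10, whose products replace the 3 catalytic subunits and give the immunoproteasome. In Huntington's disease the polyglutamine fragment of huntingtin forms ubiquitin-positive inclusions in neurons, which is why this protease has long been studied there.

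The libraries fall into 3 groups of 3. HD-WNT5B libraries came from N171-82Q mice given pAAV-GFAP(pro)-WNT5B-P2A-mCherry, HD-Control libraries from N171-82Q mice given pAAV-GFAP(pro)-Control-mCherry, and WT-Control libraries from wild-type mice given that same control virus. N171-82Q mice carry an amino-terminal fragment of human huntingtin with an expanded polyglutamine tract, driven by the prion protein promoter, so only a fragment of the disease protein is made. All groups received a virus that expresses mCherry from a GFAP promoter, which is active mainly in astrocytes, and no uninjected brain is among them. The series text places the virus in the striatum, while the labels name the tissue as brain, and the labels give no age, sex or region, nor do they tie libraries to animals. The p-values therefore measure the spread between these libraries, which may be technical.

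The values are normalized read counts, that is, estimated reads per gene divided by 1 factor per library and not by gene length. In units of 1000000 (M), the libraries hold 37.3 to 52.1 M reads in HD-WNT5B, 69.8 to 90.6 M in HD-Control and 67.8 to 77.8 M in WT-Control. The HD-WNT5B libraries stand apart from the others. They have 14291 to 14588 genes above 0, against 17223 to 17349 in HD-Control and 17027 to 17132 in WT-Control. Their values sum to 79.9 to 83.8 M, against 55.6 to 55.8 M in HD-Control and 54.6 to 54.7 M in WT-Control. The median SD of log2 values between replicates is 0.233 in HD-WNT5B, 0.0333 in HD-Control and 0.0393 in WT-Control. All 10 markers of striatal projection neurons and all 10 of astrocytes passed the filter on low values. The mouse gene Wnt5b differed between HD-WNT5B and HD-Control by a log2 value of 0.88 (SE 0.73, limma adjusted p = 0.298), and whether reads of the viral cargo are counted there is not given in the sources used here.

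The promoters of 4 catalytic genes are printed because the results turn on how the constitutive genes and their immunoproteasome counterparts differ. Each window holds 300 bases around the transcript start in RefSeq, GRCm38.p6, most of them before it, read 5′ to 3′ on the strand of the gene. GENCODE M21 on the same build places the gene starts of Psmb8 and Psmb9 farther upstream, so that their windows lie within the annotated genes, while those of Psmb5 and Psmb6 lie mostly before the start. The windows are thus not at like positions, and the letters found in them are not compared between the pairs. Matches to the 4 motifs searched are in capitals. Psmb6 and the gene that replaces it, Psmb9, lie at chr11:70525107-70525406 (plus strand) and chr17:34187281-34187580 (minus strand). Psmb5 and the gene that replaces it, Psmb8, lie at chr14:54617946-54618245 (minus strand) and chr17:34197945-34198244 (plus strand).
Psmb6: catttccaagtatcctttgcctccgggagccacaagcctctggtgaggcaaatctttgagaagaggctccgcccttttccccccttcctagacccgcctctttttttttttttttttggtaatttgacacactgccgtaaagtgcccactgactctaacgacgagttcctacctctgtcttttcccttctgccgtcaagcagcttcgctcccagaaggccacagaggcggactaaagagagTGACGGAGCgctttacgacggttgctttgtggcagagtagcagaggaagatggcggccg
Psmb9: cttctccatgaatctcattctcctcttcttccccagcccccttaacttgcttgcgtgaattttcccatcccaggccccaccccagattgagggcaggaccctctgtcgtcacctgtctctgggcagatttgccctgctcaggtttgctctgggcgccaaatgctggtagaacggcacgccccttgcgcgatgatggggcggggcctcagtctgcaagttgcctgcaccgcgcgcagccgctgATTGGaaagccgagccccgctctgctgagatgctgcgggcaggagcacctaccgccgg
Psmb5: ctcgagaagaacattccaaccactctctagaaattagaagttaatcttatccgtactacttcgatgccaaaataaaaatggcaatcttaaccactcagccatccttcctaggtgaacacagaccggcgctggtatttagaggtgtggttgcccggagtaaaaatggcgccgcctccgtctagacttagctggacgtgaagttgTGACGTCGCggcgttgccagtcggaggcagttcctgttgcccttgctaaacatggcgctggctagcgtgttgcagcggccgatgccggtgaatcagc
Psmb8: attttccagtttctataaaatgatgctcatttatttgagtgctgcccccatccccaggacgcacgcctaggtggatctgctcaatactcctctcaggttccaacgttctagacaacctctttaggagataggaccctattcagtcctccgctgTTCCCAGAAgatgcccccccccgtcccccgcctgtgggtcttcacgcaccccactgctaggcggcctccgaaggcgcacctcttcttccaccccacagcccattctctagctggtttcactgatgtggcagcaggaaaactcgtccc

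Both constitutive windows hold the letters TGACNNNGC, the core of the antioxidant response element to which the factors of Nfe2l1 and Nfe2l2 are known to bind. In the Psmb6 window the match starts at base 242 and in the Psmb5 window at base 204, counted from the 5′ end of the window. The Psmb9 window holds CCAAT on its opposite strand at base 243, and the Psmb8 window holds TTCNNNGAA, the letters of an interferon-gamma activated element, at base 154. Each of the 4 windows holds 1 match, so none overlap. Over all members, 41 of 49 genes had a window in the table, with 44 windows in all, searched on both strands. TGACNNNGC was in 13.6 percent of the members' windows, against 12.4 percent of all 32851 windows, CCAAT in 31.8 against 37.4 percent, and TTCNNNGAA in 6.82 against 8.3 percent. The core letters of the interferon-stimulated response element were in 5 of the 44 windows (11.4 percent), against 3.44 percent of all windows, and these 5 were of Psmb3, Psmd4, Psmd9, Psme1 and Psmg4. A match is a description of these letters in these windows, not of a bound site.

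HD-Control was first set against WT-Control, which asks how the huntingtin fragment changes the proteasome genes under the control virus. Most constitutive proteasome genes were modestly higher in HD-Control than in WT-Control brains. Of the 49 genes, 35 were called higher, 1 was called lower (Psmg3) and 13 were not called, at an adjusted p below 0.05 in limma on log2(value + 3), adjusted over the 15411 genes tested. Over all genes tested, 24.5 percent were called higher and 20.7 percent lower. The median log2 difference was 0.34 over the 49 genes (a 1.27-fold median), against 0.02 over all genes. Among genes with a mean value of at least 1000, where calls are easier, 34.2 percent of all genes and 35 of 41 proteasome genes were called higher. A fitted fold of at least 2 higher was reached by none of the 49 and by 6.09 percent of all genes, called or not.

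The groups separated without overlap for most of these genes. In 38 of 49 genes all 3 HD-Control libraries lay above all 3 WT-Control libraries, as did 43.6 percent of all genes tested, and in 6 they lay below, as did 40.4 percent of all genes. The fit shares 1 estimate of spread over all 9 libraries, to which the scattered HD-WNT5B libraries add most. With a weight per group in its place, 39 of the 49 were called higher and 6 lower, beside 43.1 and 39.9 percent of all genes.

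**Figure D1:**
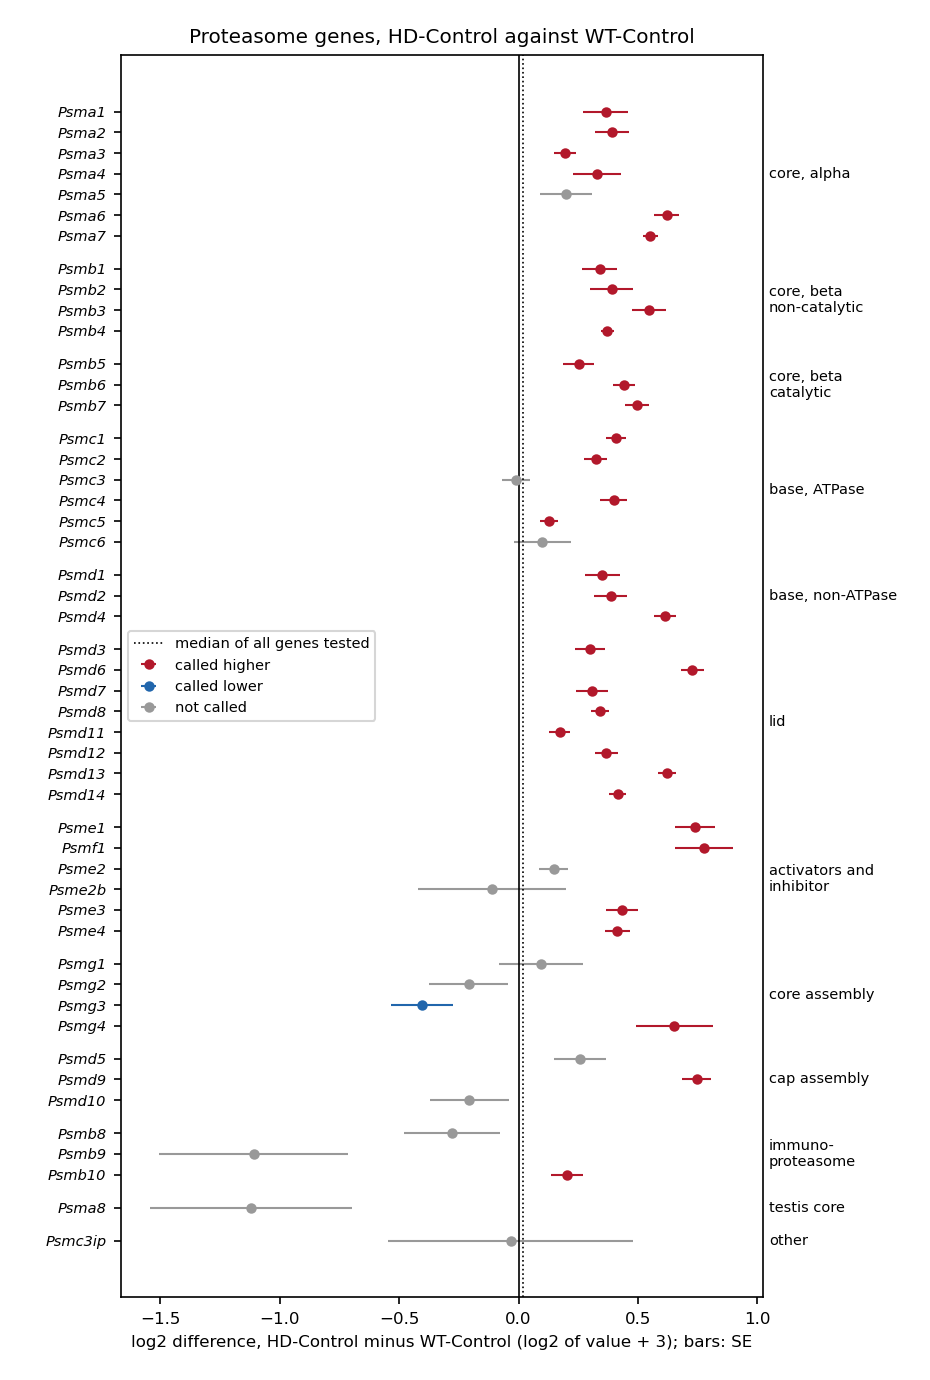
Log2 difference of HD-Control minus WT-Control for each of the 49 genes, grouped by role, with its SE (x axis, log2 of value + 3). Red points were called higher, blue lower and grey not called, and the dotted line is the median of all genes tested (0.02). Core, base and lid genes lie between -0.01 (Psmc3) and 0.73 (Psmd6), while assembly and immunoproteasome genes lie on both sides of 0.

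Cell type markers moved in the same comparison, and in bulk tissue fewer cells of a type and less RNA per cell cannot be told apart. Beside the lists that follow, 24.5 percent of all genes tested were called higher and 20.7 percent lower. Of 10 microglia markers, 9 were called lower and 1 higher in HD-Control, with summed values of 12242 to 12312 in HD-Control, against 28596 to 28992 in WT-Control. Of 10 oligodendrocyte markers, 9 were called lower and 0 higher, with sums of 363119 to 365580.0 in HD-Control, against 496826 to 501830 in WT-Control. Of 8 cortical excitatory neuron markers, 7 were called lower and 0 higher, with sums of 11508 to 11618 in HD-Control, against 25400 to 26214 in WT-Control. The median log2 differences of these lists were -1.61, -0.85 and -1.16. Of 10 striatal projection neuron markers, 7 were called lower and 3 higher, with sums of 453023 to 457621 in HD-Control, against 515202 to 516034 in WT-Control. Of 10 astrocyte markers, 7 were called lower and 2 higher, with sums of 219187 to 220727 in HD-Control, against 341524 to 344749 in WT-Control. Of 8 endothelial markers, 5 were called lower and 0 higher, with sums of 12592 to 12608 in HD-Control, against 18161 to 18468 in WT-Control. None of these markers was at 0 in either group, and none of the 4 leukocyte markers that passed the filter was called. The differences of these 4 were all negative, with a median of -0.58. With a weight per group all 4 were called lower, beside 39.9 percent of all genes. The part of these lists in the proteasome differences was not tested.

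Of the 14 core genes, 13 were called higher in HD-Control and 1 was not called, with a median log2 difference of 0.38. The summed values of the 14 were 54306 to 55296 in HD-Control libraries, against 41181 to 42186 in WT-Control libraries. Within the alpha and non-catalytic beta genes, the largest differences were those of the alpha-ring genes Psma6 and Psma7, and the smallest those of the alpha-ring genes Psma3 and Psma5. No gene of this class had a negative difference, so the smallest positive ones stand in for the largest negative. Psma6 had 4251, 4029 and 4126 in HD-Control and 2639.9, 2562 and 2875 in WT-Control, a log2 difference of 0.62 (SE 0.05, adjusted p = 3.61e-05). Psma7 had 4264, 4264 and 4254 in HD-Control and 2929.8, 2899 and 2887 in WT-Control, a difference of 0.55 (SE 0.03, adjusted p = 5.13e-06). For both genes every HD-Control library was above every WT-Control library, by far more than the spread within a group. Psma3 had 3884, 3540.2 and 3792 in HD-Control and 3337, 3227 and 3229 in WT-Control, a difference of 0.19 (SE 0.05, adjusted p = 0.00985). Psma5 had 2063, 2152 and 2218 in HD-Control and 1902, 1868 and 1835 in WT-Control, and its difference of 0.20 (SE 0.11, adjusted p = 0.176) did not pass, although its groups did not overlap. With a weight per group Psma5 passed (adjusted p = 1.05e-05). The other alpha and non-catalytic beta genes, Psma1, Psma2, Psma4 and Psmb1 to Psmb4, were all called, with differences of 0.33 to 0.55.

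The 3 catalytic core genes were all called higher in HD-Control. Psmb6 (chromosome 11, 70525367 to 70527858, mm10) had 5287, 5333 and 5410.2 in HD-Control and 3957, 3971 and 3882 in WT-Control, a log2 difference of 0.44 (SE 0.05, adjusted p = 0.000119). Psmb7 (chromosome 2, 38588036 to 38644087) had 4488, 4372 and 4423 in HD-Control and 3126, 3134 and 3156 in WT-Control, a difference of 0.50 (SE 0.05, adjusted p = 7.75e-05). Psmb5 (chromosome 14, 54614119 to 54618022) had 2954, 3025 and 2985 in HD-Control and 2522, 2466 and 2534 in WT-Control, a difference of 0.25 (SE 0.06, adjusted p = 0.0126). None of the 3 overlapped between groups, and the gene of the chymotrypsin-like site moved least. The exons of Psmb5 share 12.1 percent of their bases with Mir686 and those of Psmb7 share 11.8 percent with Nek6 on the opposite strand, and reads there cannot be assigned to either gene with certainty.

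Of the 17 cap genes, 15 were called higher in HD-Control and none lower, with a median log2 difference of 0.35. All 8 lid genes rose, and 7 of 9 base genes did. In the base, Psmd4, which encodes a receptor for ubiquitin chains, had 6344, 6504 and 6572 in HD-Control and 4298, 4202 and 4193 in WT-Control, a difference of 0.61 (SE 0.05, adjusted p = 1.67e-05). The ATPase gene Psmc1 had 8926, 8978 and 8825 in HD-Control and 6724, 6748 and 6656 in WT-Control, a difference of 0.41 (SE 0.04, adjusted p = 8.93e-05). These 2 genes showed the largest base differences, and their groups lay far apart. The 2 base genes not called were also ATPases. Psmc3 had 6157, 6285 and 6358 in HD-Control and 6359, 6289 and 6280.4 in WT-Control, so the groups overlapped (difference -0.01, SE 0.06, adjusted p = 0.916). Psmc6 had 3837, 3706 and 3695 in HD-Control and 3433, 3339 and 3728 in WT-Control, which also overlapped (difference 0.10, SE 0.12, adjusted p = 0.551). In the ATPase ring, 4 of the 6 genes were called, with Psmc5 at 0.13 and Psmc1 at 0.41, and with a weight per group Psmc6 was called too (adjusted p = 0.00969). The scaffold genes of the base, Psmd1 (0.35) and Psmd2 (0.39), were both called.

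In the lid, the largest differences were those of the scaffold genes Psmd6 and Psmd13 and the smallest those of the scaffold genes Psmd11 and Psmd3. Psmd6 had 4389.6, 4347 and 4268 in HD-Control and 2655, 2593 and 2601 in WT-Control, a difference of 0.73 (SE 0.05, adjusted p = 9.38e-06). Psmd13 had 4712, 4617 and 4691 in HD-Control and 3111, 2974 and 3031 in WT-Control, a difference of 0.62 (SE 0.04, adjusted p = 4.96e-06). Both sets of libraries were tight and well separated, and 10.1 percent of the exon bases of Psmd13 overlap Sirt3 on the opposite strand. Psmd11 had 3389, 3437 and 3496 in HD-Control and 2997, 3119 and 3045 in WT-Control, a difference of 0.17 (SE 0.05, adjusted p = 0.0143). Psmd3 had 6984, 7189 and 7397 in HD-Control and 5914, 5889 and 5740.4 in WT-Control, a difference of 0.30 (SE 0.06, adjusted p = 0.00492). Psmd14, the lid's deubiquitinating enzyme, lay between them with a difference of 0.42 (SE 0.04, adjusted p = 3.52e-05), and Psmd7, Psmd8 and Psmd12 with differences of 0.31 to 0.37.

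Of the 6 activator and inhibitor genes, 4 were called higher and none lower in HD-Control, with a median difference of 0.42. Psme1, of the interferon-inducible activator pair, had 1477, 1562 and 1401 in HD-Control and 871, 948 and 839 in WT-Control, a difference of 0.74 (SE 0.08, adjusted p = 0.000175). Its partner Psme2 had 894, 874 and 850.2 in HD-Control and 774, 791 and 795 in WT-Control, a difference of 0.15 (SE 0.06, adjusted p = 0.0795). Psme2 was thus higher in each HD-Control library than in any WT-Control library but did not pass the test, except with a weight per group (adjusted p = 0.000327). Psmf1, an inhibitor of the core, had 2477, 2542 and 2506 in HD-Control and 1509.6, 1454 and 1426 in WT-Control, a difference of 0.78 (SE 0.12, adjusted p = 0.00105). Psme3, the nuclear activator, had 7002, 6993 and 6908 in HD-Control and 5202, 5140.2 and 5144 in WT-Control, a difference of 0.43 (SE 0.07, adjusted p = 0.000889). Psmf1 showed the largest positive difference of all 49 genes. Psme4, the large nuclear activator, had 4792, 4747 and 4675 in HD-Control and 3464, 3491 and 3715 in WT-Control, a difference of 0.41 (SE 0.05, adjusted p = 0.000313). Psme2b, by its name a near copy of Psme2, had 63.8, 69.3 and 80.03 in HD-Control and 79.5, 77.5 and 73.0 in WT-Control and was not called (adjusted p = 0.811), and how reads were shared between the pair is not given in the sources used here.

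The 7 assembly genes did not move together: 2 were called higher, 1 lower and 4 were not called, with a median of 0.10. Psmg3, a chaperone of the alpha ring, was the gene called lower, with 229.5, 251 and 220.4 in HD-Control and 338, 303 and 290.4 in WT-Control, a difference of -0.41 (SE 0.13, adjusted p = 0.0324). Psmg4, its partner, was called higher, with 322, 271 and 273 in HD-Control and 184, 183 and 179.5 in WT-Control, a difference of 0.65 (SE 0.16, adjusted p = 0.0111). The 2 partners of this chaperone pair thus moved in opposite directions, and neither overlapped between groups. Psmg1, of the other chaperone pair, had 365, 323 and 305 in HD-Control and 318, 299.6 and 309 in WT-Control (adjusted p = 0.707). Its partner Psmg2 had 467, 454 and 472 in HD-Control and 568, 523 and 523 in WT-Control, a difference of -0.21 (SE 0.17, adjusted p = 0.349). Neither of this pair passed, and with a weight per group Psmg2 did (adjusted p = 0.000713).

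The base chaperones divided too. Psmd9 had 1961, 1984 and 1993 in HD-Control and 1169.7, 1162 and 1206 in WT-Control, a difference of 0.75 (SE 0.06, adjusted p = 2.47e-05), and 25.5 percent of its exon bases overlap Gm26745 on the opposite strand. Psmd5 had 2757, 2666 and 2878 in HD-Control and 2348, 2334 and 2267 in WT-Control, a difference of 0.26 (SE 0.11, adjusted p = 0.0901). Psmd10, also known as an oncoprotein of liver, had 463, 504 and 558 in HD-Control and 571, 572 and 614 in WT-Control, a difference of -0.21 (SE 0.17, adjusted p = 0.358). Of these 3, only Psmd9 passed in the fit with shared spread, and with a weight per group Psmd5 (adjusted p = 4.1e-07) and Psmd10 (adjusted p = 0.00432) passed as well, in opposite directions.

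The immunoproteasome genes did not all follow the catalytic genes they replace. Psmb10 (chromosome 8, 105935735 to 105938444) had 653, 619 and 637 in HD-Control and 539, 590.3 and 531 in WT-Control, a difference of 0.20 (SE 0.07, adjusted p = 0.0387). Psmb8 (chromosome 17, 34197721 to 34201454) had 163, 149 and 149.6 in HD-Control and 183, 198 and 182 in WT-Control, a difference of -0.28 (SE 0.20, adjusted p = 0.301). The exons of Psmb8 share 14.7 percent of their bases with Gm20496 on the opposite strand. Psmb9 (chromosome 17, 34181987 to 34187764) had 24.7, 29.5 and 43.7 in HD-Control and 86.6, 59.0 and 73.0 in WT-Control, a difference of -1.11 (SE 0.40, adjusted p = 0.05003). Psmb8 and Psmb9 were lower in each HD-Control library than in any WT-Control library, and the adjusted p of Psmb9 fell just outside the threshold. With a weight per group both were called lower (adjusted p = 0.00221 and 4.07e-05). The microglia list fell in the same comparison, as given above, and its part in the values of Psmb8 and Psmb9 was not tested.

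Several HD-Control calls depended on which libraries entered the fit. Psma1 was not called without WT-Control replicate 2 (adjusted p = 0.0554). Psma4 and Psmg3 were not called when any 1 of the 6 HD-Control and WT-Control libraries was left out, at adjusted p of 0.0628 to 0.084 for Psma4 and 0.0519 to 0.121 for Psmg3. Their differences stayed at 0.31 to 0.34 for Psma4 and -0.46 to -0.34 for Psmg3. Psmb10 kept its call without WT-Control replicate 2 and lost it without any 1 of the other 5 (0.0679 to 0.122). Psmc5 lost its call without WT-Control replicate 2 or 3 or HD-Control replicate 1 or 3 (0.0591 to 0.0867), and Psmd11 without WT-Control replicate 1 (0.0582) or HD-Control replicate 3 (0.0584). The other genes called kept their calls whichever of these 6 libraries was left out. Other scalings also ended calls. Upper-quartile factors ended those of Psma3 (adjusted p = 0.0705), Psma4 (0.0759), Psmb10 (0.123), Psmc5 (0.159) and Psmd11 (0.0621). Removal of a trend on transcript length and GC content ended those of Psma4 (0.113), Psmb5 (0.153), Psmb10 (0.225), Psmc5 (0.374) and Psmg4 (0.0814). Equal totals ended those of Psma4 (0.0546) and Psmb10 (0.0541), and trimmed-mean factors that of Psmb10 (0.052). Psmc3ip, the gene included by symbol, was not called in any comparison with all 9 libraries, with 116, 64.2 and 339 in HD-WNT5B, 132, 150.4 and 158 in HD-Control and 133, 154 and 163 in WT-Control. Without HD-WNT5B replicate 3, its highest library, Psmc3ip was called lower in HD-WNT5B than in HD-Control (-0.74, adjusted p = 0.0322) and than in WT-Control (-0.77, adjusted p = 0.0271). Psmb9 was called lower without any 1 of the HD-WNT5B libraries, which enter only the shared spread (adjusted p = 0.00756 to 0.0352).

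Genes that work with the proteasome without the Psm name were mixed in this comparison. Beside the counts that follow, 24.5 percent of all genes tested were called higher and 20.7 percent lower. Of 5 such subunits and maturation factors, 3 were called higher and 1 lower in HD-Control. Adrm1, a ubiquitin receptor of the base, had 4414, 4469 and 4508 in HD-Control and 2689, 2655 and 2484 in WT-Control, a difference of 0.77 (adjusted p = 0.000392). Uchl5, the deubiquitinase that it recruits, differed by 0.59 (adjusted p = 0.000792), and Sem1, the small lid subunit, by 0.14 (adjusted p = 0.0478). Pomp, which is needed to mature the core, was lower, with 2696, 2754 and 2739 in HD-Control and 3092, 2943 and 3112 in WT-Control, a difference of -0.16 (adjusted p = 0.0203). The deubiquitinase gene Usp14 was not called (difference -0.02, adjusted p = 0.715). Nfe2l1, whose product is known to induce proteasome genes when the proteasome is inhibited, was lower, with 17177, 17081 and 17721 in HD-Control and 22795, 22561 and 22159.5 in WT-Control, a difference of -0.38 (adjusted p = 0.00096). Of 20 shuttle and regulator genes as a whole, 7 were called higher and 6 lower, with a median of 0.07. Ufd1, which helps extract ubiquitin-tagged proteins, differed by 0.82 (adjusted p = 9.56e-06) and Ecpas, which associates with the proteasome, by 0.35 (adjusted p = 5.02e-05). Zfand2a, which associates with the proteasome under stress, rose by 0.66 (adjusted p = 0.000198). The ubiquitin genes Rps27a (0.61) and Ubb (0.30) were called higher. Of 11 antigen-processing and interferon-pathway genes, 2 were called higher and 3 lower. Among these were H2-D1 at 0.37 (adjusted p = 0.00147), Ifngr2 at -0.60 (adjusted p = 0.0115) and Tapbp at 0.43 (adjusted p = 0.0171).

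HD-WNT5B was then set against HD-Control, which asks what WNT5B expression under the GFAP promoter does in the mutant brain. Here the proteasome genes differed far more and far less evenly. Of the 49 genes, 40 were called higher, 4 lower (Psma4, Psme3, Psme2b and Psma8) and 5 were not called, while 35.8 percent of all genes tested were called higher and 41.7 percent lower. The median log2 difference was 1.52 over the 49 genes (a 2.86-fold median), against -0.23 over all genes. Called or not, the fitted difference was at least 2-fold higher for 31 of the 49 genes, beside 24.3 percent of all genes, and at least 4-fold higher for 17, beside 10.9 percent. Among genes with a mean value of at least 1000, 43.7 percent of all genes and 36 of 41 proteasome genes were called higher. Every HD-WNT5B library lay above every HD-Control library for 40 genes, beside 36.2 percent of all genes, and below for 4, beside 42.5 percent. With a weight per group 40 genes were called higher and 3 lower, beside 31.5 and 38.5 percent of all genes, and Psma8 lost its call (adjusted p = 0.373). Psma8 passed the filter mainly through WT-Control, so no weight is placed on its calls. Without Psma8, Psme2b, Psmb11 and Psmc3ip, a set chosen after seeing the data, 40 of 46 genes were called higher and 2 lower.

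The scale of this comparison depends on how the libraries are set level. The summed values differ by group, and setting every library to the same total moved the median of all genes to -0.77 and that of the 49 genes to 0.96, with 37 called higher and 8 lower. Relative to the median of all genes, the median of the 49 was 1.75 at the deposited scale and 1.73 with equal totals. Transcript length moved with the difference as well. Over all genes the median difference was 1.93 for principal transcripts under 1000 bases, 0.74 from 1000 to 2000, -0.22 from 2000 to 4000 and -0.91 above 4000. The 9, 28, 10 and 2 proteasome genes of these bins had medians of 2.51, 1.81, 0.85 and 0.50. In every bin the proteasome median was above that of all genes, and most proteasome transcripts are short. After a trend on length and GC content was taken out of each library, 37 were called higher and 7 lower, with a median of 0.94, against -0.25 over all genes. RNA quality or library preparation of the HD-WNT5B samples is not in the labels, and the part of length in these differences was not tested further.

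**Figure D2:**
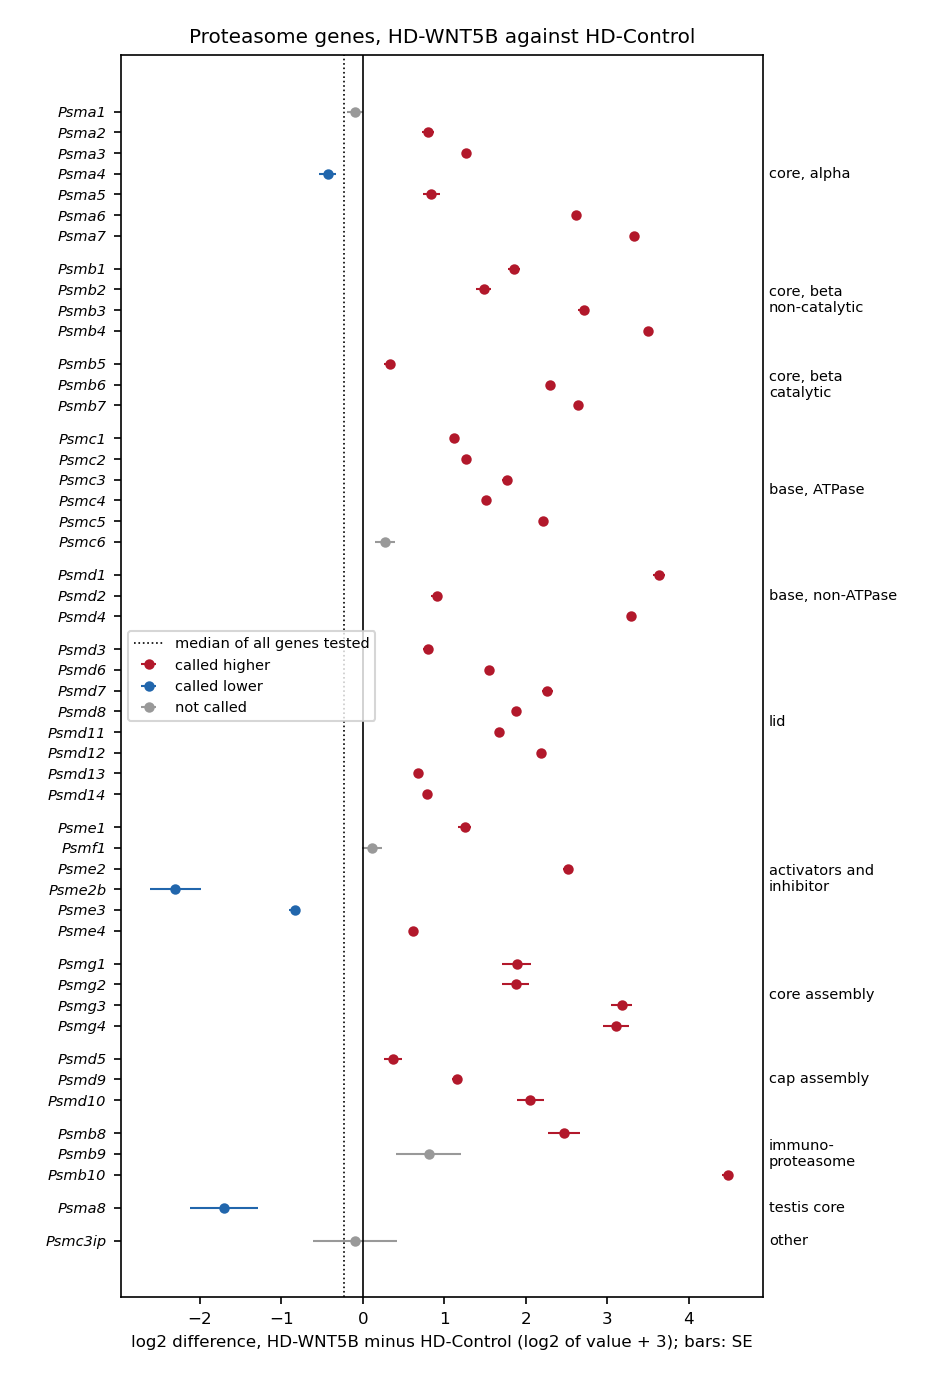
Log2 difference of HD-WNT5B minus HD-Control for each of the 49 genes, grouped by role, with its SE (x axis, log2 of value + 3). Red points were called higher, blue lower and grey not called, and the dotted line is the median of all genes tested (-0.23). Within a class the genes are spread over several log2 units, with Psmb10 (4.48) and Psmd1 (3.63) highest and Psme2b (-2.30) lowest.

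Of the 14 core genes, 12 were called higher in HD-WNT5B, Psma4 was called lower and Psma1 was not called, with a median of 1.67. Summed over the 14, values were 245641 to 266968 in HD-WNT5B libraries, against 54306 to 55296 in HD-Control libraries. Psmb4, a non-catalytic beta gene, had 62707, 63081 and 60905 in HD-WNT5B, against 5433, 5462 and 5602 in HD-Control, a log2 difference of 3.50 (SE 0.03, adjusted p = 2.01e-11). Psma7 had 42166, 44397 and 41558 in HD-WNT5B, against a HD-Control mean of 4261 ± 5.71 (SD, n = 3), a difference of 3.32 (SE 0.03, adjusted p = 2.25e-11). These values were 11.3-fold and 10.01-fold of HD-Control, while other genes of the same barrel did not rise. Psma4 had 2733, 2906 and 3706 in HD-WNT5B, against 4193, 4069 and 4221 in HD-Control, a difference of -0.43 (SE 0.10, adjusted p = 0.00396). Psma1 had 2794, 3394 and 3699 in HD-WNT5B, against 3539, 3436 and 3532 in HD-Control, which overlapped (difference -0.10, SE 0.10, adjusted p = 0.372). Psma1 and Psma4 belong to the same ring as Psma7, and their HD-WNT5B libraries scattered widely. With equal totals Psma1 was called lower (-0.65). The other alpha and non-catalytic beta genes, Psma2, Psma3, Psma5, Psma6 and Psmb1 to Psmb3, were all called, with differences of 0.80 to 2.71, of which those of Psma5 (-0.06) and Psmb2 (-0.07) changed sign with the length and GC trend removed.

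The catalytic genes divided. Psmb6 had 24514, 26503 and 27942 in HD-WNT5B, against a HD-Control mean of 5343 ± 62.2 (SD, n = 3), a difference of 2.30 (SE 0.05, adjusted p = 7.46e-10). Psmb7 had 25555, 29248 and 28152 in HD-WNT5B, against a mean of 4428 ± 58.4 in HD-Control (SD, n = 3), a difference of 2.64 (SE 0.05, adjusted p = 4.32e-10). Psmb5 had 3635, 4163 and 3502 in HD-WNT5B, against a mean of 2988 ± 35.9 in HD-Control (SD, n = 3), a difference of 0.33 (SE 0.06, adjusted p = 0.00145). The Psmb6 and Psmb7 values were 4.92-fold and 6.23-fold of HD-Control, while the rise of Psmb5 was small. Psmb5 was called lower with equal totals (-0.22, adjusted p = 0.0049) and with the length and GC trend removed (-1.61, adjusted p = 2.73e-07).

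Of the 17 cap genes, 16 were called higher and Psmc6 was not called, with a median of 1.55. Psmd1, a scaffold gene of the base, had 104147, 106645 and 85969 in HD-WNT5B, against 7856, 7905 and 8040.2 in HD-Control, a difference of 3.63 (SE 0.07, adjusted p = 6.69e-10). Psmd4 had 59854, 67919 and 63217 in HD-WNT5B, against a HD-Control mean of 6473 ± 117 (SD, n = 3), a difference of 3.30 (SE 0.05, adjusted p = 1.01e-10). At the other end, Psmd2, the other base scaffold gene, had 32872, 26469 and 30939 in HD-WNT5B, against 16252, 15868 and 15902 in HD-Control, a difference of 0.90 (SE 0.07, adjusted p = 3.07e-06). Per kilobase of transcript, Psmd1 stood at 31787 and Psmd2 at 10163 normalized reads in HD-WNT5B, against 2549 for Psmd1 and 5406 for Psmd2 in HD-Control, so the order of the scaffold genes was turned round. Psmc6 had 3704, 5397 and 4632 in HD-WNT5B, against a HD-Control mean of 3746 ± 79.0 (SD, n = 3), and was not called (difference 0.27, SE 0.12, adjusted p = 0.0656), with the lowest HD-WNT5B library inside the HD-Control range. It was called without HD-WNT5B replicate 1 (adjusted p = 0.0013). In the ATPase ring as a whole, 5 of 6 genes were called higher, and Psmc5, at 2.21, was the largest. With equal totals Psmc6 was called lower (-0.28, adjusted p = 0.0492). It was called higher with trimmed-mean factors (0.33, adjusted p = 0.0292) and with the length and GC trend removed (0.86, adjusted p = 8.11e-05).

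All 8 lid genes rose in HD-WNT5B, with a median of 1.61. Psmd7, the partner of the deubiquitinase Psmd14, had 30402, 29142 and 24946 in HD-WNT5B, against 5845, 5832 and 5884 in HD-Control, a difference of 2.26 (SE 0.07, adjusted p = 6.2e-09). Psmd12, a scaffold gene, had 18237, 16454 and 16589 in HD-WNT5B, against 3808, 3688 and 3776 in HD-Control, a difference of 2.18 (SE 0.05, adjusted p = 1.1e-09). These stood highest in the lid. Psmd14 had 7376, 7451 and 7458 in HD-WNT5B, against 4374, 4349 and 4186 in HD-Control, a difference of 0.79 (SE 0.04, adjusted p = 9.19e-08). Psmd13 had 7403, 7316 and 7705 in HD-WNT5B, against a mean of 4673 ± 49.5 in HD-Control (SD, n = 3), a difference of 0.68 (SE 0.04, adjusted p = 3.09e-07). Psmd7 and Psmd14 form a dimer in the lid, and their values were 4.79-fold and 1.73-fold of HD-Control. The lid genes Psmd3, Psmd6, Psmd8 and Psmd11 differed by 0.80 to 1.88, and Psmd3 lost its call with the length and GC trend removed (adjusted p = 0.462).

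The activators went both ways, and their median of 0.36 turned to -0.19 with equal totals. Psme1 had 3759.8, 3190.0 and 3626 in HD-WNT5B, against a HD-Control mean of 1480.1 ± 80.3 (SD, n = 3), a difference of 1.25 (SE 0.08, adjusted p = 1.31e-06). With the length and GC trend removed it was called lower (-0.26, adjusted p = 0.0339). Psme2 had 4915, 4809 and 5267 in HD-WNT5B, against a mean of 873 ± 21.8 in HD-Control (SD, n = 3), a difference of 2.51 (SE 0.06, adjusted p = 1.9e-09). Psme4 had 6911, 7805 and 7119 in HD-WNT5B, against a mean of 4738 ± 59.3 in HD-Control (SD, n = 3), a difference of 0.62 (SE 0.05, adjusted p = 6.24e-06), which was not called with equal totals (adjusted p = 0.253). These 3 activators rose at the deposited scale, and Psme2 rose most. Psme3 fell, with 4398, 3651 and 3725 in HD-WNT5B, against a mean of 6968 ± 51.8 in HD-Control (SD, n = 3), a difference of -0.83 (SE 0.07, adjusted p = 3.91e-06). The near copy Psme2b fell to 10.7, 8.03 and 19.3 in HD-WNT5B, against a mean of 71.0 ± 8.26 in HD-Control (SD, n = 3), a difference of -2.30 (SE 0.31, adjusted p = 0.000139), in the libraries in which Psme2 was high. Psmf1 was not called, with 2168, 3148 and 2899 in HD-WNT5B, against a mean of 2508 ± 32.8 in HD-Control (SD, n = 3, adjusted p = 0.438). It was called higher without HD-WNT5B replicate 1 (adjusted p = 0.00163) and with the length and GC trend removed (0.44, adjusted p = 0.0104). With equal totals it was called lower (-0.445, adjusted p = 0.00801).

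All 7 assembly genes were called higher in HD-WNT5B, with a median of 1.89. Psmg3 had 1894, 2160.4 and 2367 in HD-WNT5B, against a HD-Control mean of 234 ± 15.6 (SD, n = 3), a difference of 3.18 (SE 0.13, adjusted p = 4.71e-08). Psmg4 had 2971, 2628 and 1999 in HD-WNT5B, against a mean of 289 ± 28.7 in HD-Control (SD, n = 3), a difference of 3.10 (SE 0.16, adjusted p = 2.43e-07). Both partners of this chaperone pair rose alike, to 9.04-fold and 8.60-fold of HD-Control. Psmg1 had 1241, 972 and 1542 in HD-WNT5B, against a mean of 331 ± 31.0 in HD-Control (SD, n = 3), a difference of 1.89 (SE 0.18, adjusted p = 1.1e-05). Psmg2 had 2012, 1289.8 and 1932 in HD-WNT5B, against a mean of 465 ± 9.27 in HD-Control (SD, n = 3), a difference of 1.88 (SE 0.17, adjusted p = 7.77e-06). The other pair thus moved by similar amounts to each other. Of the base chaperones, Psmd10 had 2225, 2607 and 1638 in HD-WNT5B, against a mean of 508 ± 47.4 in HD-Control (SD, n = 3), a difference of 2.06 (SE 0.17, adjusted p = 4.21e-06). Psmd9 had 4685, 4502 and 4085 in HD-WNT5B, against a mean of 1979 ± 16.4 in HD-Control (SD, n = 3), a difference of 1.16 (SE 0.06, adjusted p = 2.22e-07). Psmd5 rose least, with 2942, 4033 and 3873 in HD-WNT5B, against a mean of 2767 ± 106 in HD-Control (SD, n = 3), a difference of 0.37 (SE 0.11, adjusted p = 0.0124) that turned to -0.18 with equal totals.

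Among the immunoproteasome genes Psmb10 stood out. It had 14832, 14535 and 13435 in HD-WNT5B, against a HD-Control mean of 637 ± 16.8 (SD, n = 3), a difference of 4.48 (SE 0.07, adjusted p = 1.44e-10) and the largest of all 49 genes. Psmb8 had 762, 731 and 1160.1 in HD-WNT5B, against a mean of 154 ± 8.18 in HD-Control (SD, n = 3), a difference of 2.47 (SE 0.20, adjusted p = 4.38e-06). Psmb9 had 76.9, 77.1 and 32.2 in HD-WNT5B, against a mean of 32.6 ± 9.88 in HD-Control (SD, n = 3), and was not called (difference 0.81, SE 0.40, adjusted p = 0.0928). Psmb9 overlapped between groups through HD-WNT5B replicate 3, and without that library it was called higher (difference 1.202, adjusted p = 0.00546). Of 11 other antigen-processing and interferon-pathway genes, 4 were called higher and 3 lower, beside 35.8 and 41.7 percent of all genes tested. Irf1, an interferon-induced activator of these genes, had 71.5, 19.3 and 6.43 in HD-WNT5B, against 357, 309 and 305 in HD-Control, a difference of -3.70 (adjusted p = 0.0006), while Ifngr1 (0.86, adjusted p = 1.18e-06), B2m (0.86, adjusted p = 1.12e-05) and H2-K1 (0.93, adjusted p = 6.91e-05) rose.

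**Figure D3:**
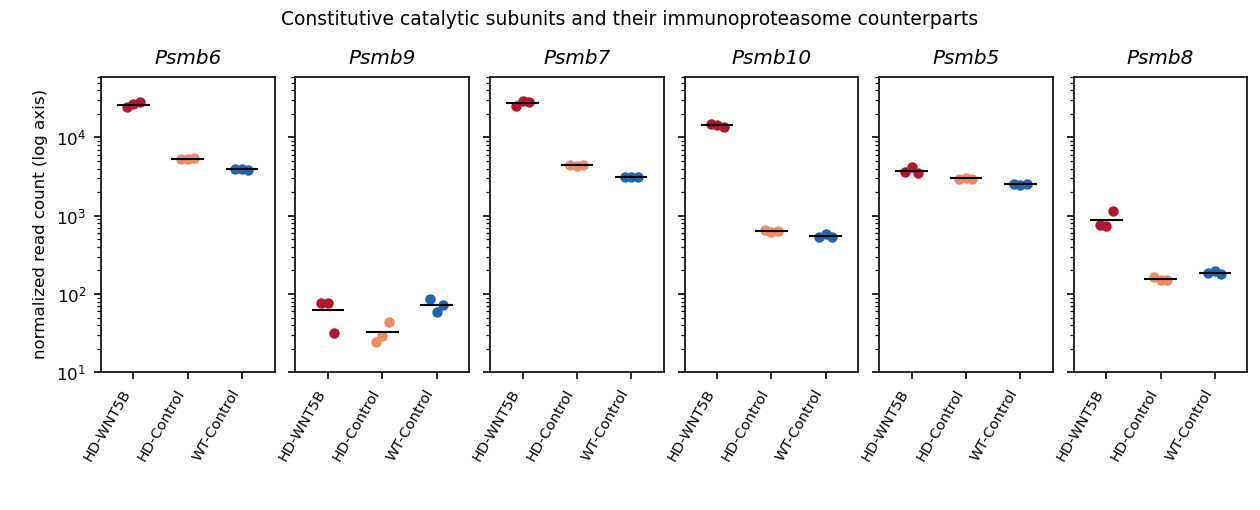
Normalized read count (log axis) of the 3 constitutive catalytic genes, each beside the immunoproteasome gene that replaces it, in each library of HD-WNT5B, HD-Control and WT-Control, with the group mean as a line. Psmb6, Psmb7 and Psmb10 stand far higher in HD-WNT5B, Psmb5 differs little, and Psmb9 is at most 86.6 in all 9 libraries.

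The balance of immunoproteasome to constitutive genes was compared per kilobase of the principal transcript. Psmb10 stood at 45.9 ± 4.85 percent of Psmb7 in HD-WNT5B, 12.7 ± 0.170 percent in HD-Control and 15.6 ± 0.936 percent in WT-Control (SD, n = 3 each). Psmb8 stood at 13.2 ± 4.52 percent of Psmb5 in HD-WNT5B, 2.85 ± 0.182 percent in HD-Control and 4.13 ± 0.259 percent in WT-Control. Psmb9 stood at 0.142 ± 0.0642 percent of Psmb6 in HD-WNT5B, 0.360 ± 0.104 percent in HD-Control and 1.09 ± 0.208 percent in WT-Control. The 3 pairs did not share a direction: the first 2 ratios were highest in HD-WNT5B and the last was lowest there. All 3 ratios were lower in every HD-Control library than in any WT-Control library. Of 10 microglia markers, 6 were called higher and 0 lower in HD-WNT5B, beside 35.8 and 41.7 percent of all genes tested. The sums of these markers were 41363 to 46005 in HD-WNT5B, against 12242 to 12312 in HD-Control. Their part in the ratios was not tested, nor was that of the trend on transcript length and GC content.

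The other marker lists held called genes as well, in a comparison in which 35.8 percent of all genes tested were called higher and 41.7 percent lower. Of 10 oligodendrocyte markers, 7 were called higher and 3 lower, with sums of 839417 to 888601 in HD-WNT5B, against 363119 to 365580.0 in HD-Control. Of 8 endothelial markers, 5 were called higher and 3 lower, with sums of 44005 to 51839 in HD-WNT5B, against 12592 to 12608 in HD-Control. The cortical excitatory list had 2 of 8 called higher and 2 lower, with sums of 19377 to 21539 in HD-WNT5B, against 11508 to 11618 in HD-Control. The astrocyte list had 3 of 10 called higher and 5 lower, with sums of 198349 to 210342 in HD-WNT5B, against 219187 to 220727 in HD-Control. The striatal list had 3 of 10 called higher and 5 lower, with sums of 360248 to 373327 in HD-WNT5B, against 453023 to 457621 in HD-Control. Most of these lists held genes that moved in both directions. Of the leukocyte markers, 2 of 4 tested were called higher and 2 lower, and the lymphocyte markers Cd3e, Cd8a and Ms4a1 were at 0 in all HD-WNT5B libraries. The part of these lists in the proteasome differences was not tested.

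Of the 5 partners without the Psm name, 3 were called higher in HD-WNT5B than in HD-Control, 1 was called lower and 1 was not called. Beside this count and those that follow, 35.8 percent of all genes tested were called higher and 41.7 percent lower. Pomp had 13628, 13774 and 12598 in HD-WNT5B, against 2696, 2754 and 2739 in HD-Control, a difference of 2.29 (adjusted p = 6.25e-10). Sem1 had 10292, 11242 and 11376 in HD-WNT5B, against a mean of 1908 ± 39.5 in HD-Control (SD, n = 3), a difference of 2.52 (adjusted p = 6.91e-10). Uchl5 rose by 1.24 (adjusted p = 1.84e-06), Usp14 fell by 0.31 (adjusted p = 0.000207) and Adrm1 was not called (difference -0.11, adjusted p = 0.333). Of 20 shuttle and regulator genes, 10 were called higher and 7 lower, with a median of 0.14. Ubqln1, a shuttle, rose by 2.27 (adjusted p = 1.34e-09), Txnl1, which associates with the cap, by 1.46 (adjusted p = 5.85e-09) and the ligase gene Ube3a by 1.16 (adjusted p = 1.65e-07), while Zfand2a fell by 2.13 (adjusted p = 2.27e-08). Nfe2l1 was lower again, with 10843, 9601 and 9099 in HD-WNT5B, against a mean of 17327 ± 345 in HD-Control (SD, n = 3), a difference of -0.82 (adjusted p = 1.9e-06). The ubiquitin genes named here split. Ubb had 8614, 8301 and 7636 in HD-WNT5B, against 16013, 16015 and 16304 in HD-Control, a difference of -0.98 (adjusted p = 8.9e-08). Rps27a, which encodes ubiquitin fused to a ribosomal protein, was called higher (1.92).

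How evenly the subunits were expressed is seen in levels per kilobase of transcript. Subunits of a complex are needed in fixed proportions, and the core genes ranged from 2651 (Psma2) to 52600 (Psmb4) normalized reads per kilobase in HD-WNT5B, a 19.8-fold range. In HD-Control they ranged from 1314 (Psma3) to 6696 (Psmb6), a 5.10-fold range, and in WT-Control from 1147 (Psma3) to 4933 (Psmb6), a 4.30-fold range. The SD of the log2 level over the 14 core genes was 1.63 to 1.73 in single HD-WNT5B libraries, against 0.649 to 0.662 in HD-Control and 0.582 to 0.592 in WT-Control. The 3 HD-WNT5B libraries lay far above the other 6, which sat close together. The 17 cap genes showed the same order between HD-WNT5B and the others, with SDs of 1.15 to 1.22 in HD-WNT5B, 0.633 to 0.639 in HD-Control and 0.629 to 0.656 in WT-Control. With the merged length of all exons in place of the principal transcript, the SD of the group means was 1.48 in HD-WNT5B, 0.629 in HD-Control and 0.623 in WT-Control for the core. For the cap it was 1.29 in HD-WNT5B, 0.870 in HD-Control and 0.891 in WT-Control. No test was run on these SDs, which describe the libraries. The wide spread is not particular to the proteasome: the SD of the log2 differences of HD-WNT5B minus HD-Control was 1.25 over the 14 core genes and 1.36 over the 49 genes, against 1.80 over all genes tested.

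**Figure D4:**
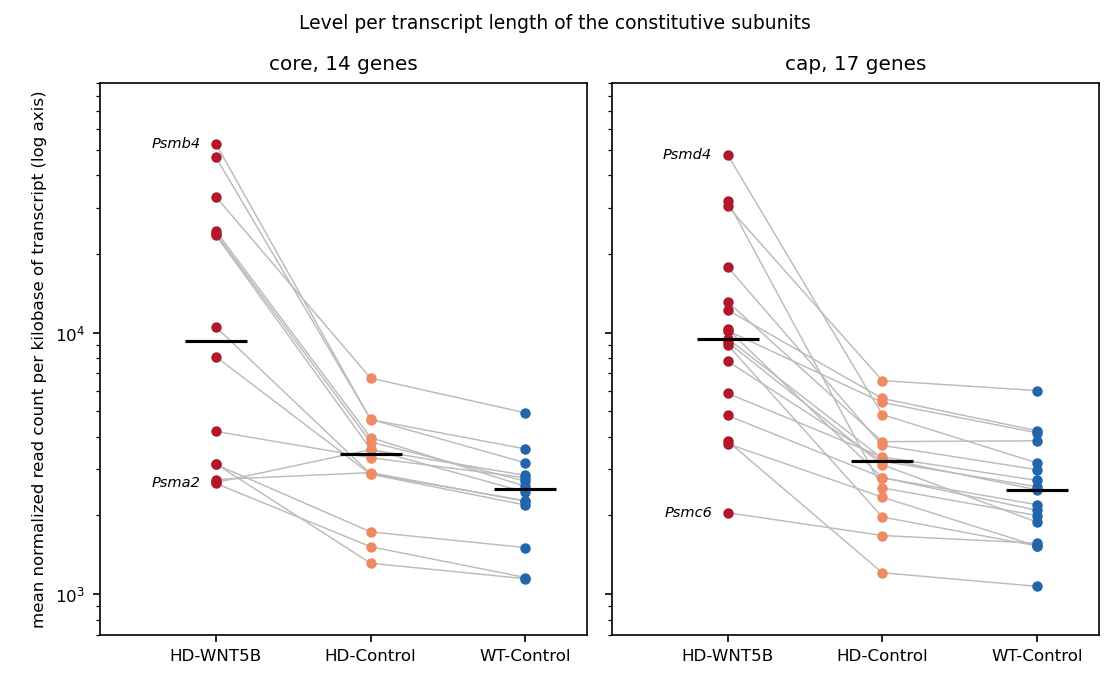
Mean normalized read count per kilobase of principal transcript (log axis) of the 14 core genes (left) and 17 cap genes (right) in HD-WNT5B, HD-Control and WT-Control. Each point is a gene, lines join a gene across groups and bars are medians, which for the core are 9288 in HD-WNT5B, 3448 in HD-Control and 2520 in WT-Control. The points fan out in HD-WNT5B and lie close together in the other groups.

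Set against WT-Control, a comparison that shares libraries with both of the others, HD-WNT5B had 43 of the 49 genes called higher, 3 lower (Psme3, Psme2b and Psma8) and 3 not called, while 35.9 percent of all genes were called higher and 42.1 percent lower. The median was 1.85 over the 49 genes (a 3.61-fold median), against -0.25 over all genes. All HD-WNT5B libraries lay above all WT-Control libraries for 41 genes, beside 36.2 percent of all genes, and below for 3, beside 43.2 percent. The genes farthest from WT-Control were Psmb10 (4.68), Psmd1 (3.98), Psmd4 (3.91), Psma7 (3.88), Psmb4 (3.87) and Psmg4 (3.76). Psmb4 had 62707, 63081 and 60905 in HD-WNT5B and 4285, 4258 and 4204 in WT-Control. Psmd1 had 104147, 106645 and 85969 in HD-WNT5B and 6183, 6175 and 6303 in WT-Control. The groups of both genes lay far apart, as did those of Psma7 and Psmd4. In the lid the largest differences were those of Psmd7 (2.57) and Psmd12 (2.55), and the smallest those of Psmd3 (1.10) and Psmd14 (1.203). In WT-Control Psmd7 had 4759, 4624 and 4813, and Psmd12 had 2859, 2865 and 3015. Psmd14 had 3240.2, 3152 and 3285 in WT-Control. Psmd3 had 11263, 13288 and 13184 in HD-WNT5B and 5914, 5889 and 5740.4 in WT-Control. All 4 lid genes lay above WT-Control in every HD-WNT5B library. Among the alpha genes, Psma4 had 3301, 3256 and 3392 in WT-Control, inside the range of its HD-WNT5B libraries, and was not called (-0.10, SE 0.10, adjusted p = 0.370). It was called lower with equal totals (-0.68, adjusted p = 0.000391), with the length and GC trend removed (-0.96, adjusted p = 2.08e-05) and without HD-WNT5B replicate 3 (-0.23, adjusted p = 0.00088). Psma1 had 2794, 2575 and 2794 in WT-Control and was called at 0.27 (SE 0.10, adjusted p = 0.0293) with overlapping groups. That call was not made with a weight per group (adjusted p = 0.109), nor without WT-Control replicate 1, 2 or 3 or HD-WNT5B replicate 2 or 3 (adjusted p = 0.052 to 0.0969). In the base Psmc6 (0.37, adjusted p = 0.0193) lost its call without WT-Control replicate 1 or 2 (0.0542 and 0.0626), and Psmd2, with 12440.0, 12218 and 12114 in WT-Control, stood at 1.29. Psme3 was lower than in WT-Control (-0.40, SE 0.07, adjusted p = 0.000507), and Psmb9 was not called (-0.30, SE 0.40, adjusted p = 0.502), with the HD-WNT5B libraries spanning 32.2 to 77.1 and the WT-Control libraries 59.0 to 86.6. Psma8, listed at 0 in HD-WNT5B, passed the filter mainly through WT-Control, so its lower call carries no weight, and with a weight per group it was not called (adjusted p = 0.140). Without it, Psme2b, Psmb11 and Psmc3ip, 43 of 46 genes were called higher and 1 lower. With equal totals Psma1 (-0.31) and Psmc6 (-0.21) changed sign and Psmb5 (adjusted p = 0.977) and Psmd5 (adjusted p = 0.692) lost their calls, and with the length and GC trend removed Psma5 did (adjusted p = 0.522). With a weight per group 42 of the 49 were called higher and 2 lower, beside 32.2 and 39 percent of all genes. Of the partners, Sem1 (2.67), Pomp (2.13), Uchl5 (1.82) and Adrm1 (0.66) were called higher and Usp14 (-0.34) and Nfe2l1 (-1.20) lower.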

How the data were processed

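RNA-seq of poly(A) RNA from 9 mouse brain libraries was analysed. The deposited values are a signal per gene, estimated reads divided by 1 factor per library and not by length, as read from the values themselves. Alignment with STAR to mm10 is per the submitters' processing notes, and the sources used here name no counter, annotation or normalization. Dividing by the value of 1 read gave whole reads within 0.01 for 93.4 to 94.9 percent of values, zeros included, which sets the depths given. All 21853 gene IDs matched GENCODE M21.

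The 15411 genes that reached 10 in 3 or more libraries were tested with limma 3.58.1 (R 4.3.3) on log2(value + 3), with group means over all 9 libraries, a mean-variance trend, 6 residual degrees of freedom and Benjamini-Hochberg adjustment over all of them. Adjusted p-values in the text are from this fit unless another is named. The script was tested on simulated data. Alternatives were other scalings, constants, filters, spreads and samples, and, chosen after seeing the data, a length and GC correction and a count without Psma8, Psmb11, Psme2b and Psmc3ip.

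The members and lists were chosen with earlier results of these data known. Values per library are given for the catalytic, immunoproteasome, activator, inhibitor and assembly genes, and in each comparison for the 2 largest positive and 2 largest negative differences of the core, base and lid, or the smallest where none was negative. Of each partner list, up to 4 genes with the smallest p are named, and always Nfe2l1, Pomp, Adrm1, Sem1, Usp14 and Uchl5. Other genes were named after their values were seen. Paaf1 was not analysed here, and some genes of the partner and marker lists are not reported here.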

Additional observations from a re-analysis of the deposited data

How the results depend on the processing

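Counts of genes called higher stayed within 1.5 times in all comparisons and settings run. The count called lower in HD-Control against WT-Control (1) was 2 under each of upper-quartile, trimmed-mean and equal-total scaling, a constant of 10, no filter and the length and GC trend removed, 6 with a weight per group or only the 2 groups compared, and 0 to 3 on leaving out 1 library. In HD-WNT5B against HD-Control the count called lower (4) was 8 with equal totals, 7 with the length and GC trend removed and 2 without Psma8, Psmb11, Psme2b and Psmc3ip. In HD-WNT5B against WT-Control (3) it was 5, 7 and 1 under those settings, and 3 to 5 on leaving out 1 library.

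Median log2 differences moved as follows. For HD-Control against WT-Control, the core median was 0.35 with equal totals, 0.32 with upper-quartile factors and 0.29 with the length and GC trend removed, and the cap median 0.32, 0.29 and 0.28 under these and 0.33 with trimmed-mean factors. With upper-quartile factors the activator median was 0.36 and the assembly median 0.0341. The assembly median was 0.00844 with the trend removed, 0.0230 to 0.152 on leaving out 1 library and reversed to -0.0554 without genes whose exons overlap another gene for over 10 percent of their bases, where the immunoproteasome median was -0.453. For HD-WNT5B against HD-Control, equal totals gave 1.12 for the core, 0.9985 for the cap, 1.92 for the immunoproteasome, 1.34 for assembly and, reversed, -0.19 for the activators. The trend removed gave 1.14, 0.94, 1.45, 1.006 and 0.0912 for the same lists. The cap median was 1.61 with trimmed-mean factors and also 1.61 without overlapped genes. Leaving out 1 library gave 1.59 to 1.76 for the core, 1.54 to 1.60 for the cap, 0.28 to 0.46 for the activators and 1.79 to 2.06 for assembly. For HD-WNT5B against WT-Control, equal totals gave 1.45 for the core, 1.26 for the cap, 1.61 for the immunoproteasome, 0.38 for the activators and 1.32 for assembly, and the trend removed gave 1.56, 1.24, 1.13, 0.71 and 1.11. Upper-quartile factors gave 1.97 for the core and 1.77 for the cap, and leaving out 1 library 1.95 to 2.13 for the core and 0.88 to 1.06 for the activators. With merged exon lengths the SD of log2 levels per kilobase was 1.48, 0.629 and 0.623 over the core in HD-WNT5B, HD-Control and WT-Control, and 1.29, 0.870 and 0.891 over the cap.

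Single genes reversed as well. Against HD-Control, equal totals turned Psmb5 to -0.22, Psmc6 to -0.28, Psmd5 to -0.18 and Psmf1 to -0.445, and the trend removed turned Psma5 to -0.0619, Psmb2 to -0.0743, Psmb5 to -1.61, Psmb9 to -0.447 and Psme1 to -0.26. Of these, Psmb5, Psmc6 and Psmf1 were called lower with equal totals, and Psmb5 and Psme1 with the trend removed. In HD-WNT5B against WT-Control, equal totals turned Psma1 to -0.31 and Psmc6 to -0.21, and the trend removed turned Psma1 to -0.49 and Psmb5 to -1.45. All of these but Psmc6 were then called lower. On leaving out 1 library, 7 differences that were not called took both signs. These ranged over -0.0205 to 0.00269 for Psmc3 and -0.116 to 0.0426 for Psmc3ip in HD-Control against WT-Control, and over -0.185 to 0.0169 for Psma1, -0.737 to 0.436 for Psmc3ip and -0.000686 to 0.268 for Psmf1 in HD-WNT5B against HD-Control. In HD-WNT5B against WT-Control they ranged over -0.500 to 0.0936 for Psmb9 and -0.770 to 0.403 for Psmc3ip. The cause of these changes was not tested.

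With the replicate number as a block, 33 genes were called higher and 0 lower in HD-Control against WT-Control, 40 and 4 in HD-WNT5B against HD-Control, and 43 and 3 in HD-WNT5B against WT-Control. The block ended the HD-Control calls of Psmb10 (adjusted p = 0.0694), Psmc5 (0.053) and Psmg3 (0.0767). The replicate numbers share only a number: deviations of same-numbered libraries correlated by -0.023 to 0.024 over 9 pairs. The edgeR and DESeq2 alternatives were not run, because 93.4 to 94.9 percent of values, zeros included, came out as whole reads, which was taken as too few for a count test. The scatter of the HD-WNT5B libraries exceeds that of the others, so 1 shared spread is too small for that group and too large for the others. The lower depth of HD-WNT5B limits genes of few reads such as Psma8, Psmb9 and Psme2b.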
